A study of Mus musculus with 11 samples.

Results

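The T-box factors of limb, heart and body wall were followed at the RNA level in 2 kinds of mouse cells of WT and Atxn7l3-/- genotype, embryonic stem cells (mESCs) and embryonic fibroblasts (MEFs). The set holds 8 genes, Tbx1, Tbx2, Tbx3, Tbx4, Tbx5, Tbx15, Tbx18 and Tbx20, out of 26398 genes listed for both cell types, and its members were chosen by name. The choice also used 1 measurement, the lower level of Tbx2 in Atxn7l3-/- MEFs, so the values of the members in that contrast are given below as a description without a test. Atxn7l3 encodes the adaptor of the SAGA deubiquitylation module, which removes ubiquitin from histone H2B.

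Poly(A)+ RNA was sequenced in 11 libraries. WT (Atxn7l3+/+) mESCs gave 2 libraries and Atxn7l3-/- mESCs 3, while WT and Atxn7l3-/- MEFs gave 3 each, all on a DBA/2 x C57BL/6 background. The mESCs were grown from individual blastocysts on feeder cells for the first passages and then without them, in 15% FCS with LIF, 1 uM PD0325901 and 3 uM CH99021. The MEFs were grown in 10% FCS from E10.5 embryos after the head and the gastrointestinal tract had been taken off. By the labels the groups of a cell type differed in the Atxn7l3 genotype alone, and the mutation was constitutive, not limited to a cell type. Another WT mESC library, which the study set aside after principal component analysis, was not analysed here.

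T-box factors share a DNA-binding T domain and act in combinations and in a dose-dependent way during organ formation. Tbx5 and Tbx4 act in the outgrowth of the fore- and hindlimb, Tbx2 and Tbx3 are repressors that pattern the limb margins and keep the cardiac conduction system and non-chamber myocardium from adopting a chamber programme, and Tbx20 and Tbx5 work with GATA and NKX2-5 factors in the heart. Tbx18 marks the epicardium, the sinus horn and the somite, Tbx15 acts in the dermis and skeleton of the body wall and limb, and Tbx1 in the pharyngeal arches. In mESCs, Tbx3 is known as a member of the naive pluripotency network.

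The region before the transcription start of Tbx4, Tbx18 and Tbx20 is printed here, because Tbx4 and Tbx18 lay at the ends of the range of differences between WT and Atxn7l3-/- MEFs and because Tbx20 is the tested member whose genotypes overlapped there. The sequences are the 250 bases before the start in the RefSeq annotation of GRCm38.p6, printed 5′ to 3′ on the strand of the gene. Capitals mark a match to the TATA-box letters TATAAA on either strand. The Tbx4 stretch covers chr11:85896515-85896764 (+ strand), in front of a start that lies within the gene body given in the deposited table.
Tbx4: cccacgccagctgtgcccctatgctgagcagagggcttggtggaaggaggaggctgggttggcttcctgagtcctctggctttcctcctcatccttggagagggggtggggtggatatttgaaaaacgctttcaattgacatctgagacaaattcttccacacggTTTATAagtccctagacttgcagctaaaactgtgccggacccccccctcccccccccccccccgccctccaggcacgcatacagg
Tbx18: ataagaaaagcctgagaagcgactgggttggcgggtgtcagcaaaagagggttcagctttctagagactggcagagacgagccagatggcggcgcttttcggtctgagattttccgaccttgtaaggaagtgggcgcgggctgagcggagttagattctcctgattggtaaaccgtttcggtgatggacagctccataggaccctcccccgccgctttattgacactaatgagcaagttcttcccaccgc
Tbx20: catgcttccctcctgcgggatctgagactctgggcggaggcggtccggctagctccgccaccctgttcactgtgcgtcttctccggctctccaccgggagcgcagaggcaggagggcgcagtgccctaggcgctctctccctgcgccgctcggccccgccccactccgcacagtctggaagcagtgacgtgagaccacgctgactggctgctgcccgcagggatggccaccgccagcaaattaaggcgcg
The Tbx18 stretch covers chr9:87731261-87731510 and the Tbx20 stretch chr9:24774304-24774553, both on the - strand. In GENCODE M21 none of them overlaps an exon of its own gene, and the Tbx18 stretch overlaps an exon of the opposite-strand transcript D030062O11Rik. The Tbx20 stretch holds 22 CG dinucleotides and is 68.8% G or C, the Tbx18 stretch 15 and 54.0%, and the Tbx4 stretch 6 and 58.4%, against a median of 6 CG dinucleotides and 52.4% G or C over 32851 windows of the same length. The T-box element AGGTGTGA was searched on both strands and was found in none of the 5 windows that the table gives for 4 members (Tbx1, Tbx4, Tbx18 and Tbx20), and 1.12% of all windows hold it. The letters TATAAA occurred in the Tbx4 window, on the opposite strand, so that they read TTTATA in the sequence above, and 12.4% of all windows hold them.

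Atxn7l3 was measured first, as a check of the labels. In mESCs it stood at 222 and 223 CPM, the read count relative to the scaled size of its library, in the WT libraries and at 0.976 to 3.91 CPM in the Atxn7l3-/- libraries (log2 fold change -6.65 ± 0.53, adjusted p = 0.0211). In MEFs it stood at 79.7 to 104 CPM in the WT and at 49.2 to 67.3 CPM in the Atxn7l3-/- libraries, and the groups did not overlap, but the log2 fold change of -0.74 ± 0.21 did not pass the test (adjusted p = 0.0715) and many reads of the gene remained. The Atxn7l3-/- libraries held 130, 75 and 37 counts of the gene in mESCs and 2130, 2168 and 2449 counts in MEFs. The paper gives the exons that the loxP sites of the targeting construct flank, and names FLP recombination as the step to the null allele. Which part of the gene the remaining MEF reads cover was not tested, so this check of RNA alone does not settle the MEF label. The study also measured the protein in these cells, which is not reported here. The 7 mESC markers summed to between 4704 and 5814 CPM in mESCs and to at most 71.9 CPM in MEFs, where 5 of them are listed, and the 8 fibroblast markers to between 9701 and 44435 CPM in MEFs. Library totals lay between 34515342 and 49602605 counts, and 3 counts, taken as the floor of detection, correspond to 0.0572 to 0.0938 CPM on the scale of the members and to 0.0563 to 0.0902 CPM on the scale within a cell type, which the lists and markers use. The sexes were mixed and not balanced between the genotypes. Xist stood at 300.5 CPM in WT MEF library 3 and at most 0.646 CPM in the other MEF libraries. It stood at 58.3 and 51.0 CPM in Atxn7l3-/- mESC libraries 1 and 2 against 2.80 to 25.3 CPM in the other mESC libraries. The Y-linked Ddx3y stood at 90.6 and 193 CPM in WT and at 3.46, 0.882 and 225 CPM in Atxn7l3-/- mESCs. In MEFs it stood at 182, 59.2 and 0.218 CPM in WT and at 194, 241 and 185 CPM in Atxn7l3-/- libraries. The part of sex in the genotype differences was not tested.

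All members are protein-coding. On mm10, Tbx2 (ENSMUSG00000000093) lies at chr11:85832551-85841948 and Tbx4 (ENSMUSG00000000094) at chr11:85886422-85916097, on the same strand and 44.5 kb apart. Tbx3 (ENSMUSG00000018604, chr5:119670669-119684724) and Tbx5 (ENSMUSG00000018263, chr5:119832668-119885219) form another neighbouring pair. Tbx15 (ENSMUSG00000027868) lies at chr3:99240381-99354259, Tbx18 (ENSMUSG00000032419) at chr9:87702800-87731260, Tbx20 (ENSMUSG00000031965) at chr9:24718138-24774303 and Tbx1 (ENSMUSG00000009097) at chr16:18581713-18586969. The paralogs have distinct sequences outside the T domain, and how the counting treated reads that fit several genes is not given in the sources used here.

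**Figure D1:**
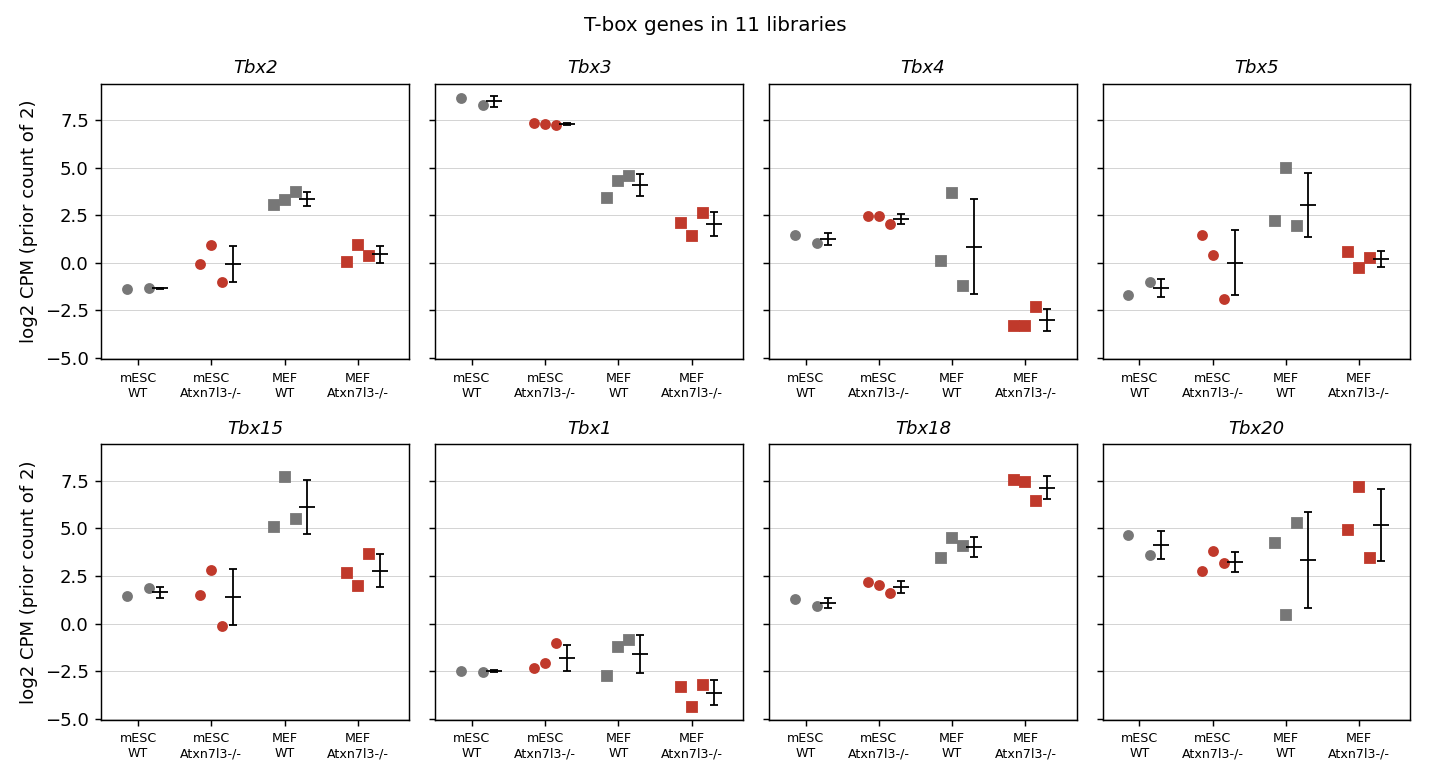
Level of each T-box gene in each library, as log2 CPM on 1 scale for all 11 libraries (prior count of 2). Circles are mESC and squares MEF libraries, grey WT and red Atxn7l3-/-, and the bars give the mean and SD of the log2 values of a group; Tbx3 is highest in mESCs, Tbx2 is high in WT MEFs alone, and Tbx18 is highest in Atxn7l3-/- MEFs.

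Levels below are in CPM on a single scale over all 11 libraries and are given in the order of the replicates. Tbx2, a repressor of the chamber programme in the heart and a limb margin gene, was nearly silent in WT mESCs, with 0.343 and 0.350 CPM. In Atxn7l3-/- mESCs it stood at 0.900, 1.84 and 0.450 CPM. In WT MEFs it reached 8.04, 9.69 and 13.2 CPM. In Atxn7l3-/- MEFs it stood at 0.982, 1.87 and 1.23 CPM, below every WT MEF library. The lowest WT MEF library was therefore 8.04 CPM and the highest Atxn7l3-/- MEF library 1.87 CPM, while all Atxn7l3-/- mESC libraries lay above both WT ones.

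In WT MEFs Tbx2 was higher than in WT mESCs by 4.88 ± 0.74 on the log2 scale (SE, adjusted p = 3.74e-04). In the Atxn7l3-/- libraries the same cell type difference was 0.35 ± 0.53 (adjusted p = 0.582) and the libraries overlapped. These cell type contrasts share the MEF libraries with the contrast that took part in the choice of Tbx2, so its p-values here are a description and no independent test. Within mESCs, Tbx2 differed between Atxn7l3-/- and WT by 1.64 ± 0.69 (adjusted p = 0.159), which did not pass the test. The description of Tbx2 in MEFs is a log2 fold change of -2.93 ± 0.44 (SE, 3 against 3 libraries). When the trend of each library's counts over GC content was taken out, it was -1.5. At 63.2% G or C, the Tbx2 transcripts had the highest GC content of the members.

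Tbx3, the closest relative of Tbx2, had the highest level of all members in mESCs, with 409 and 312 CPM in WT and 163, 157 and 151 CPM in Atxn7l3-/- libraries. The genotypes did not overlap. Tbx3 fell in Atxn7l3-/- mESCs by 1.15 ± 0.20 on the log2 scale (adjusted p = 0.0270). It was the only one of the 7 members tested there that was called at an adjusted p of 0.05, where 6.96% of all 17800 genes tested were called, 3.08% as higher and 3.88% as lower. The call was lost in 1 fit of all 11 libraries (adjusted p = 0.101). Without WT library 1, WT library 2 or Atxn7l3-/- library 1 its adjusted p was 0.196, 0.142 and 0.0852, but those fits called only 0, 0 and 3 genes in all, so they do not bear on Tbx3 in particular. Over all alternatives the log2 fold change of Tbx3 lay between -1.35 and -0.93.

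In MEFs Tbx3 was far lower, with 10.7, 19.5 and 23.2 CPM in WT and 4.25, 2.58 and 6.14 CPM in Atxn7l3-/- libraries. The highest Atxn7l3-/- library stayed under the lowest WT library, and the log2 fold change was -2.04 ± 0.47 as a description. Against mESCs of the same genotype, Tbx3 was lower in MEFs, with log2 fold changes of -4.34 ± 0.39 in WT (adjusted p = 1.67e-05) and -5.19 ± 0.39 in Atxn7l3-/- cells (adjusted p = 3.60e-06).

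Tbx4, the hindlimb factor, stood at 2.75 and 1.98 CPM in WT mESCs and at 5.40, 5.47 and 4.01 CPM in Atxn7l3-/- mESCs, without overlap. The difference of 1.11 ± 0.42 on the log2 scale did not pass edgeR's test (adjusted p = 0.131), whereas DESeq2 called it (adjusted p = 0.0216). DESeq2 called 19.2% of all genes in mESCs, against 6.96% by edgeR. In WT MEFs it was uneven, with 1.04, 12.4 and 0.390 CPM, and library 2 alone accounted for most of the WT signal. The Atxn7l3-/- MEFs held 2, 2 and 5 counts, or 0.0531, 0.0512 and 0.150 CPM. The log2 fold change of Tbx4 in MEFs was -5.73 ± 1.52 with library 2 and -3.05 without it.

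Tbx5, the forelimb and heart factor, showed the same unevenness, with 4.59, 31.4 and 3.73 CPM in WT MEFs and 1.46, 0.793 and 1.14 CPM in Atxn7l3-/- MEFs. The groups did not overlap, but WT library 2 stood far above the others. The log2 fold change was -3.55 ± 0.93 with it and -1.88 without it. In mESCs Tbx5 was low, at 0.267 and 0.453 CPM in WT and 2.72, 1.29 and 0.225 CPM in Atxn7l3-/- libraries, and the genotypes overlapped (log2 fold change 2.02 ± 0.97, adjusted p = 0.208). Without Atxn7l3-/- library 3 the adjusted p was 0.0486.

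Tbx15, a dermal and skeletal factor, had the highest level per kb of all members in WT MEFs, with 33.9, 211 and 45.5 CPM. In Atxn7l3-/- MEFs it stood at 6.34, 3.81 and 12.8 CPM, below every WT library. The log2 fold change in MEFs was -3.66 ± 0.86, and -2.36 without WT library 2. In mESCs it stood at 2.67 and 3.58 CPM in WT and at 2.75, 6.88 and 0.856 CPM in Atxn7l3-/- libraries, with overlap (0.19 ± 0.76, adjusted p = 0.892).

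WT MEF library 2 thus held the highest Tbx4, Tbx5 and Tbx15 and the lowest Tbx20 of the MEF libraries. It also held Pitx1, the hindlimb factor upstream of Tbx4, at 442 counts against 3 and 10 in the other WT and 0 to 1 in the Atxn7l3-/- MEF libraries; this gene was singled out after its values were seen. The part of Pitx1 in the level of Tbx4 was not tested.

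Tbx18, a gene of epicardium and body wall mesenchyme, went the other way. It stood at 10.8, 22.4 and 16.9 CPM in WT MEFs and at 187, 170 and 87.7 CPM in Atxn7l3-/- MEFs. Each Atxn7l3-/- library was above each WT library, and the log2 fold change was 3.13 ± 0.39, between 2.91 and 3.42 over all alternatives. In mESCs Tbx18 stood at 2.37 and 1.83 CPM in WT and at 4.47, 3.97 and 2.95 CPM in Atxn7l3-/- libraries, which did not overlap but did not pass the test (0.90 ± 0.44, adjusted p = 0.215). Against mESCs of the same genotype it was higher in MEFs by 2.99 ± 0.43 in WT (adjusted p = 2.76e-04) and by 5.29 ± 0.40 in Atxn7l3-/- cells (adjusted p = 3.65e-06).

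Markers of mesothelium and epicardium moved with Tbx18. The sum of their 6 genes ranged from 17.6 to 43.1 CPM in WT MEFs and from 5377 to 7630 CPM in Atxn7l3-/- MEFs, and 5 of 6 rose. Upk3b, a uroplakin of mesothelial cells, ranged from 3.75 to 16.3 CPM in WT and from 1570 to 2004 CPM in Atxn7l3-/- MEFs, while Krt19 ranged from 3.94 to 16.2 CPM and from 4.01 to 12.3 CPM. Of the 8 fibroblast markers, 0 were called in MEFs by edgeR, with 2 at an unadjusted p under 0.05 and 2 called by DESeq2. Vim and Postn had every Atxn7l3-/- library below every WT library, and the other 6 overlapped. Postn ranged from 370 to 3911 CPM in WT and from 2.17 to 160 CPM in Atxn7l3-/- MEFs, while Pdgfra ranged from 7.04 to 88.5 CPM and from 48.3 to 219 CPM. The sum of the 8 ranged from 9701 to 44435 CPM in WT and from 15828 to 24775 CPM in Atxn7l3-/- MEFs. The part of these markers in the differences of the T-box genes was not tested. In bulk RNA, fewer cells of a type and less RNA per cell cannot be told apart.

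Tbx20, a heart factor, varied more between libraries than between genotypes. It stood at 18.8, 1.34 and 38.9 CPM in WT MEFs and at 30.6, 146 and 10.9 CPM in Atxn7l3-/- MEFs. The groups overlapped, and the log2 fold change of 1.64 ± 1.25 dropped to 0.06 without Atxn7l3-/- library 2. That library also held Myl7, an atrial myosin light chain and 1 of 7 cardiomyocyte markers, at 158 CPM. Myl7 stood at 14.6 and 0.577 CPM in the other Atxn7l3-/- and at most 1.65 CPM in WT MEFs. The other markers did not share this pattern. In Atxn7l3-/- library 2 the defining myosins Myh6 and Myh7 were at 0.0912 and 0 CPM, and Actn2, Ttn and Nppa at 0.0228, 0.661 and 0.274 CPM. Tnnt2 stood at 61.2, 36.7 and 14.7 CPM in the Atxn7l3-/- MEFs. The part of these markers in the Tbx20 value was not tested. In mESCs Tbx20 stood at 24.9 and 12.0 CPM in WT and at 6.68, 14.0 and 8.90 CPM in Atxn7l3-/- libraries, with overlap and no call (-0.87 ± 0.42, adjusted p = 0.214).

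Tbx1, the pharyngeal factor, was at the limit of detection. It held 7 and 6 counts in WT and 6, 9 and 20 counts in Atxn7l3-/- mESCs, 5, 12 and 21 counts in WT MEFs and 2, 0 and 2 counts in Atxn7l3-/- MEFs. It did not pass the filter on low counts in either genotype comparison, and no fold change is given. In the fit of all 11 libraries it was called lower in Atxn7l3-/- MEFs than in Atxn7l3-/- mESCs (adjusted p = 0.0227), a call that was lost without Atxn7l3-/- mESC library 3 (0.0830) or without Atxn7l3-/- MEF library 2 (0.0640).

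**Figure D2:**
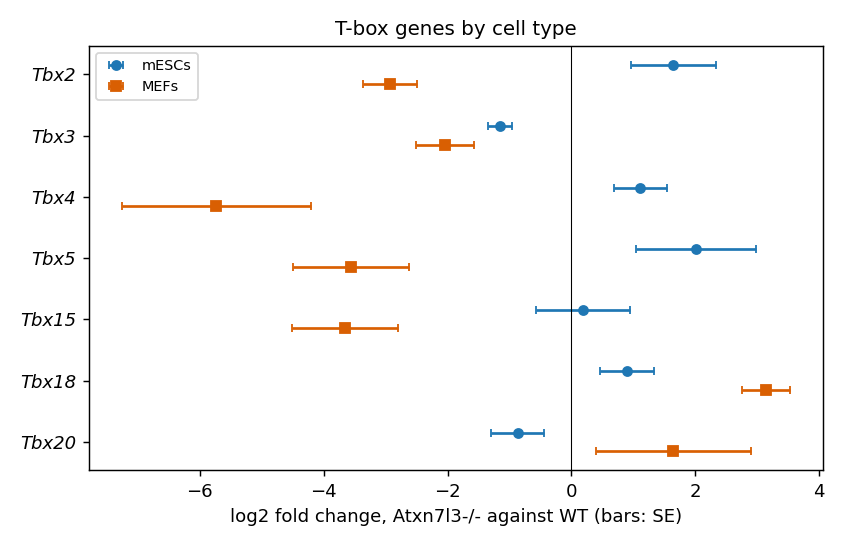
Log2 fold change of Atxn7l3-/- against WT in mESCs (circles) and MEFs (squares) for the 7 members that passed the filter on low counts, with SE. In MEFs the points of Tbx2, Tbx3, Tbx4, Tbx5 and Tbx15 lie between -5.73 and -2.04 and those of Tbx18 and Tbx20 above 0; in mESCs Tbx3 at -1.15 was the only member called.

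In MEFs, 7 of 8 members passed the filter. Of these, 5 (Tbx2, Tbx3, Tbx4, Tbx5 and Tbx15) had every Atxn7l3-/- library below every WT library, as had 19.8% of all 15958 genes tested, and 1 (Tbx18) had every such library above, as had 20.0%. The choice of members used this contrast, so nothing is read from these counts. In mESCs, whose values were not part of the stated choice, 3 of the 7 members tested (Tbx2, Tbx4 and Tbx18) had every Atxn7l3-/- library above both WT libraries against 24.6% of all genes, and Tbx3 alone had them below against 25.1%. For Tbx2 the groups were set apart by few reads, with 18 and 17 counts in WT against 20 counts in Atxn7l3-/- library 3. The sum of the 8 fibroblast markers was 65.8 and 185 CPM in WT and 367 to 501 CPM in the Atxn7l3-/- mESC libraries. This sum is carried by the collagens: Col1a1, Col1a2, Col3a1 and Postn stood higher in every Atxn7l3-/- library, and of these Col1a1 and Postn were called, whereas Pdgfra, Pdgfrb, Thy1 and Vim overlapped. The part of these markers in the levels of Tbx2, Tbx4 and Tbx18 was not tested.

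Between WT MEFs and WT mESCs, 5 of 8 members were called, where 53.9% of 19326 genes were, 26.8% as higher and 27.1% as lower in MEFs. Tbx2, Tbx5 (5.19 ± 1.30 on the log2 scale, adjusted p = 0.00680), Tbx15 (4.95 ± 1.12, adjusted p = 0.00385) and Tbx18 were higher in MEFs and Tbx3 was lower. The call of Tbx2 uses the WT MEF libraries that took part in its choice and is a description. Tbx4 (0.96 ± 1.11, adjusted p = 0.485), Tbx20 (0.09 ± 1.13, adjusted p = 0.952) and Tbx1 (1.33 ± 0.88, adjusted p = 0.222) did not pass. Tbx4 turned to -1.71 without WT MEF library 2 (adjusted p = 0.0459), and Tbx5 lost its call without WT mESC library 1 (adjusted p = 0.0616).

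Between Atxn7l3-/- MEFs and Atxn7l3-/- mESCs, 4 of 8 members were called, where 61.0% of genes were, 29.5% as higher and 31.5% as lower in MEFs. Tbx18 was higher in MEFs, and Tbx3, Tbx4 (-5.85 ± 1.25, adjusted p = 0.00228) and Tbx1 were lower. Tbx5 (-0.32 ± 0.92, adjusted p = 0.778) and Tbx15 (1.12 ± 0.81, adjusted p = 0.246), both called between the WT cell types, did not pass here, and Tbx20 (2.66 ± 1.07) had an adjusted p of 0.0505. The difference between the cell type contrasts of the 2 genotypes was not tested.

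Per kb of transcript, the order of the levels differed between the groups. In WT mESCs Tbx3 led with a mean of 92.8 CPM per kb, followed by Tbx20 (10.3), Tbx15 (4.79), Tbx18 (0.823), Tbx4 (0.785), Tbx5 (0.308), Tbx2 (0.0956) and Tbx1 (0.0724), and Tbx18 and Tbx4 were the only neighbours in that order whose libraries overlapped. In Atxn7l3-/- mESCs Tbx3 led with 40.5 CPM per kb and every pair of neighbours below Tbx20 (5.48) overlapped. In WT MEFs Tbx15 led with 148 CPM per kb, ahead of Tbx5 (11.3), Tbx20 (10.9), Tbx18 (6.54), Tbx3 (4.58), Tbx2 (2.84), Tbx4 (1.54) and Tbx1 (0.186), and every pair of neighbours below Tbx15 overlapped. In Atxn7l3-/- MEFs Tbx18 led with 58.2 CPM per kb, and overlapped Tbx20 (34.6), which overlapped Tbx15 (11.7). Tbx3 (1.11 CPM per kb) came next and overlapped Tbx5 (0.966), while Tbx2 (0.375) lay apart from Tbx5 above and Tbx4 (0.0281) below it, and Tbx4 overlapped Tbx1 (0.0212).

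These lengths are the deposited median transcript lengths, which are short for Tbx15 (653 bases) and Tbx5 (1170 bases) beside their exon unions of 3747 and 4675 bases. Over the exon union, Tbx15 stayed first in WT MEFs at 25.8 CPM per kb, and Tbx18 (3.54), Tbx2 (2.84) and Tbx5 (2.83) came next. By the threshold of more than 10 normalized reads per kb, taken over the median of a cell type's libraries, 6 members were expressed in mESCs and 6 in MEFs, with Tbx1 under it in both, Tbx2 under it in mESCs and Tbx4 under it in MEFs.

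**Figure D3:**
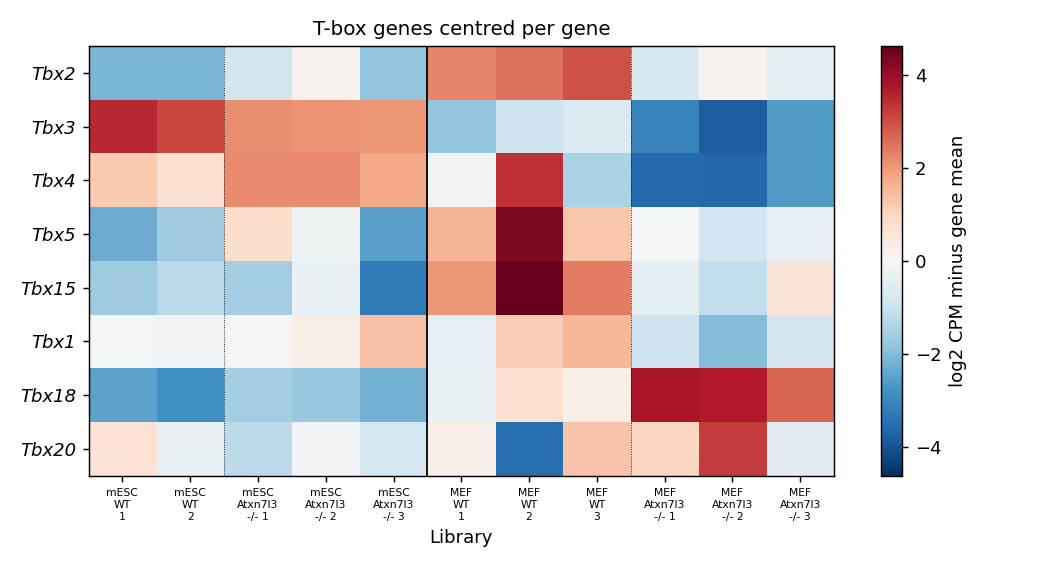
Log2 CPM of each member in each library after the gene's own mean over 11 libraries was taken off (red above, blue below the mean). The column of WT MEF library 2 is the reddest for Tbx4, Tbx5 and Tbx15 and the bluest for Tbx20, and the 3 Atxn7l3-/- MEF columns are red for Tbx18.

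By the root mean square difference of these centred log2 values, Tbx5 and Tbx15 were the most alike pair of members (0.944), followed by Tbx2 with Tbx15 (1.03) and Tbx2 with Tbx5 (1.04), and Tbx3 and Tbx18 the least alike (4.80). Over all genes tested, the 5 genes most like Tbx2 were Gpr45 (0.580), Mgll (0.630), Gm10125 (0.664), Fhl1 (0.706) and F13a1 (0.731), against a median of 1.97 over 19326 genes. Mgll, monoacylglycerol lipase, stood at 80.9, 75.5 and 126 CPM in WT and at 5.97, 20.0 and 25.4 CPM in Atxn7l3-/- MEFs. Fhl1, a LIM-domain protein of muscle, stood at 922, 371 and 1099 CPM in WT and at 178, 221 and 221 CPM in Atxn7l3-/- MEFs. The points share the same 11 libraries, and the likeness is a description.

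The genes beside the members were measured to see whether the loci moved with them. Within 100 kb of a member, 12 other genes had a median of at least 10 counts in a cell type. In MEFs 8 of them were tested and 0 were called by edgeR, 1 had an unadjusted p under 0.05 and DESeq2 called 1. Of all genes, edgeR called 9.41% and DESeq2 24.7% there, and 6.96% were called by edgeR in mESCs. With so few neighbours, their counts are no result about the loci. In mESCs 1 of the 9 tested was called, Gnb1l beside Tbx1, which rose by 1.40 ± 0.25 (adjusted p = 0.0287) and in MEFs was at -0.62 ± 0.34 (adjusted p = 0.252). Bcas3, which ends 6.49 kb before Tbx2, was at -0.28 ± 0.24 in MEFs (adjusted p = 0.433) and -0.25 ± 0.20 in mESCs (adjusted p = 0.442).

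The transcript 2610027K06Rik, which starts 328 bases from Tbx2 on the other strand, was at -3.20 ± 1.05 in MEFs (adjusted p = 0.0942) with every Atxn7l3-/- library below every WT library. Wars2, 1195 bases from Tbx15, was at 0.43 ± 0.25 in MEFs (adjusted p = 0.265) and -0.44 ± 0.40 in mESCs (adjusted p = 0.491). D030062O11Rik, which overlaps the start of Tbx18 on the other strand, was at -0.24 ± 0.72 in MEFs (adjusted p = 0.839), and Tbx3os1, which overlaps Tbx3, at 0.52 ± 0.47 in mESCs (adjusted p = 0.487). The strand setting of the counting is not given in the sources used here, so reads of these overlapping transcripts and of Tbx18 and Tbx3 may not be separated.

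The remaining neighbours, Gp1bb, Sept5 and Rtl10 beside Tbx1, Gm16063 and Tbx3os2 beside Tbx3 and Gm42717 beside Tbx15, were not called where they were tested. Gm42717, a sense-intronic transcript inside Wars2, came nearest at 2.19 ± 0.56 in mESCs (adjusted p = 0.0563). No gene beside Tbx5 or Tbx20 reached a median of 10 counts.

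The pathways around these factors were then described by 7 lists of 96 genes, covering other T-box genes, inducing signals, cardiac partners, limb bud factors, body wall, dermis and epicardium factors, co-repressors and inhibitors, and direct targets. In MEFs 75 of them were tested, 9 rose and 8 fell, which is 22.7% against 9.41% of all genes, 5.01% rising and 4.39% falling. Replicate numbers go with shared deviations in MEFs, and with the number as a block 31 were called, where 14.0% of all genes were. In mESCs 72 were tested, 1 rose and 6 fell, which is 9.72% against 6.96% of all genes, 3.08% rising and 3.88% falling. Of the list genes named here for MEFs, only Gata6, Tcf21 and Wt1 stayed called under every alternative (highest adjusted p = 0.0446, 0.0416 and 0.0415), where the fits with a library left out called between 1.2% and 12.2% of all genes. In mESCs the fits without WT library 1, WT library 2 or Atxn7l3-/- library 1 called next to no gene and do not bear on the 7 called, whose log2 fold changes kept their sign under every alternative in which they were tested. In other fits Irx4 lost its mESC call with the replicate block (adjusted p = 0.0503) and without Atxn7l3-/- library 2 (0.0507). Bmp7 (0.449) and Gja1 (0.0765) lost theirs in 1 fit of all 11 libraries. T and Irx4 were not tested in mESCs with 10 counts in every library. The lists were chosen with results of these data known, and Wt1 stands in a list and among the markers of mesothelium.

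**Figure D4:**
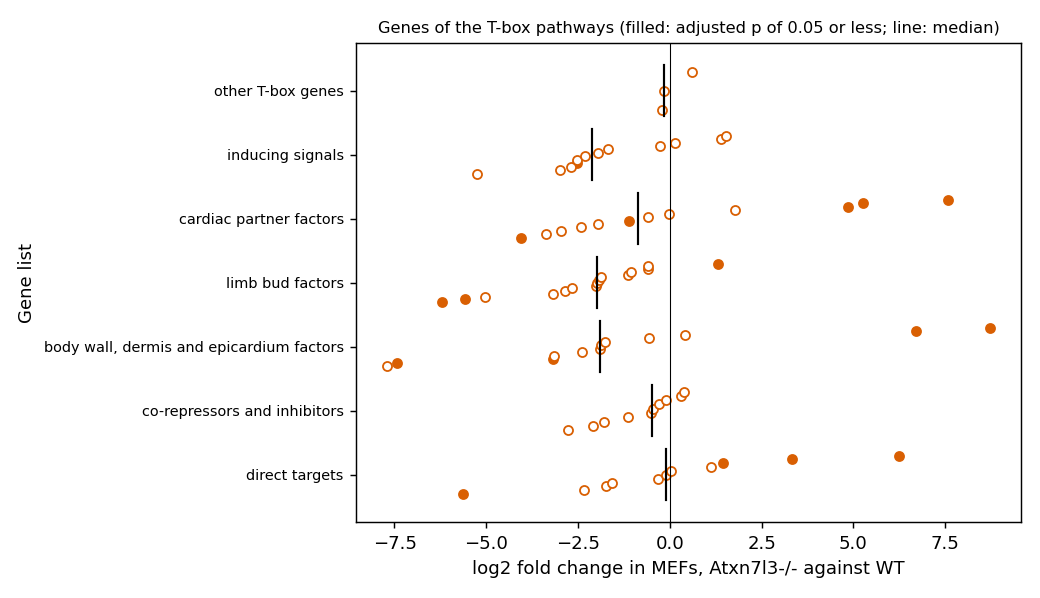
Log2 fold change of Atxn7l3-/- against WT MEFs for the 75 genes of the 7 lists that were tested, a circle per gene. Filled circles were called at an adjusted p of 0.05 and the vertical line is the median of a list; the medians of the inducing signals, limb bud and body wall lists lie between -2.13 and -1.90, against -0.06 over all genes tested.

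Among the inducing signals in MEFs, 1 of 12 fell, 0 rose and 11 did not pass, with a median log2 fold change of -2.13 against -0.06 over all genes. Bmp2, a ligand that induces Tbx2 and Tbx3 in heart and limb, fell by 2.53 ± 0.48 (adjusted p = 0.0306), from 3.45, 2.65 and 2.66 CPM to 0.669, 0.297 and 0.549 CPM. Fgf10, the limb outgrowth signal downstream of Tbx5 and Tbx4, was at -2.68 ± 0.85 and did not pass (adjusted p = 0.0878). In mESCs Bmp7 rose by 2.21 ± 0.30 and Fgf10 fell by 3.59 ± 0.52 (adjusted p = 0.0211 and 0.0219), and 9 of 11 did not pass (median 0.78 against 0.04).

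Among the cardiac partner factors in MEFs, 3 of 12 rose and 2 fell, with a median of -0.85. The 3 were GATA factors that bind with TBX5 and TBX20 at cardiac genes. Gata4 rose by 5.26 ± 0.79 (adjusted p = 0.0177), from 0.976, 4.27 and 0.720 CPM to 86.1, 90.9 and 49.1 CPM. Gata6 rose by 4.86 ± 0.52 (adjusted p = 0.00878), from at most 10.9 CPM to at least 157 CPM, and Gata5 (adjusted p = 0.0105) stood at 2.42 to 6.97 CPM against at most 0.0375 CPM. Hey1, a Notch effector that restricts Tbx2 in the heart, fell by 4.06 ± 0.66 (adjusted p = 0.0214), from 14.0, 12.4 and 8.96 CPM to 1.18, 0.228 and 0.714 CPM. GATA4 and GATA6 also work in mesothelium and other mesenchyme. These genes and 5 of the 6 mesothelial markers were higher in the Atxn7l3-/- MEFs as a group, and a link between them was not tested. In mESCs 1 of 10 fell (Irx4, -2.88 ± 0.59, adjusted p = 0.0354).

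Among the limb bud factors in MEFs, 1 of 15 rose and 2 fell, with a median of -1.98. Alx4, a factor of the anterior limb and body wall, fell by 5.57 ± 0.85 (adjusted p = 0.0183), from 19.2, 11.1 and 14.2 CPM to 0.554, 0.0456 and 0.330 CPM. Lmx1b, the dorsal limb determinant, fell by 6.21 ± 1.32 (adjusted p = 0.0392), from 4.79, 14.6 and 1.59 CPM to 0.115, 0 and 0.165 CPM. Meis2, a proximal limb factor, rose by 1.30 ± 0.29 (adjusted p = 0.0436). Lmx1b was not called with the replicate block (adjusted p = 0.0585), and Meis2 not with 10 counts in every library (0.0512) or the GC trend removed (0.0914). In mESCs Sall4, a TBX5 target in the limb that also serves pluripotency, fell by 1.5 ± 0.19 (adjusted p = 0.0211), the only one of 16 to pass (median 0.99).

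Among the body wall, dermis and epicardium factors in MEFs, 2 of 12 rose and 2 fell, with a median of -1.90. Those that rose are epicardial and mesothelial genes. Wt1 rose by 6.70 ± 0.60 (adjusted p = 0.00594), from 0.882, 2.68 and 1.00 CPM to 158, 208 and 105 CPM, and Tcf21 by 8.73 ± 0.73 (adjusted p = 0.00570), from 0.263, 0.920 and 0.458 CPM to 290, 292 and 105 CPM. Those that fell are mesenchymal genes: Six2 fell by 7.44 ± 0.98 (adjusted p = 0.0132) and Eya1 by 3.19 ± 0.53 (adjusted p = 0.0219). Six2 held 127, 264 and 214 counts in WT and 1, 0 and 2 counts in Atxn7l3-/- MEFs. In mESCs 0 of 6 were called by edgeR, with 2 at an unadjusted p under 0.05 and 1 called by DESeq2.

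Among the direct targets in MEFs, 3 of 11 rose and 1 fell, with a median of -0.10. TBX2 and TBX3 are known to repress Gja1 and Gja5, the connexin genes of the working myocardium. Gja1 rose by 1.46 ± 0.35 (adjusted p = 0.0475), from 219, 256 and 171 CPM to 499, 866 and 412 CPM, whereas Gja5 fell by 5.62 ± 1.23 (adjusted p = 0.0413), from 21.9, 1.59 and 8.90 CPM to 0.439, 0.0456 and 0.165 CPM. Gja1 was not called with upper-quartile scaling (adjusted p = 0.0560), with 10 counts in every library (0.0563) or with the GC trend removed (0.0899). Hcn4, the pacemaker channel, rose by 6.25 ± 1.02 (adjusted p = 0.0214), from at most 0.526 CPM to 45.4, 38.3 and 4.37 CPM. Mycn rose by 3.33 ± 0.53 (adjusted p = 0.0209). In mESCs Gja1 fell by 1.07 ± 0.18 (adjusted p = 0.0257), from 242 and 216 CPM to 103, 105 and 119 CPM, and 12 of 13 did not pass.

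Of the co-repressors and inhibitors, 0 of 10 were called in MEFs by edgeR, with 2 at an unadjusted p under 0.05 and 2 called by DESeq2, and the median was -0.49. In mESCs Tle4, a Groucho co-repressor, fell by 2.59 ± 0.31 (adjusted p = 0.0211), from 289 and 194 CPM to 34.1, 56.3 and 30.3 CPM, and 9 of 10 did not pass (median 0.13). Of the other T-box genes, 0 of 3 were called in MEFs by edgeR, with 0 at an unadjusted p under 0.05 and 0 called by DESeq2. In mESCs T (Brachyury), the mesoderm founder of the family, fell by 4.29 ± 0.56 (adjusted p = 0.0211), from 1.40 and 2.20 CPM to 0.0902, 0.0715 and 0.106 CPM, and 5 of 6 did not pass.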

How the data were processed

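The analysis started from 2 gene tables, 1 for mESCs and 1 for MEFs, as the authors left them. Per the submitters' processing notes, libraries were demultiplexed with bcl2fastq 2.17.1.14, trimmed with cutadapt 1.10, mapped to mm10 with STAR 2.5.3a and counted with HTSeq 0.6.1p1, which gave the deposited raw counts per gene. The library kit keeps the strand, but the annotation release and the strand setting of the counting are not given in the sources used here. The deposited normalized signal is the authors' count divided by a DESeq2 1.16.1 size factor per library, given a second time per kb of median transcript length. Columns with the authors' own log2 ratios and p-values for the genotype contrast were left aside.

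The counts were fitted with edgeR 4.0.16 in R 4.3.3 (quasi-likelihood test, filterByExpr, TMM), each cell type alone for genotype and all 4 groups together, over the 26398 genes in both tables, for cell type. Adjustment followed Benjamini and Hochberg over every gene tested, and a gene was called at an adjusted p of 0.05. Members are given in CPM on 1 scale for the 11 libraries, and lists and markers in CPM scaled within a cell type, with a prior count of 2 for logs. A floor of 3 counts was used. Nothing says that the replicates of a group share a culture, and the paper derives each from its own blastocyst or embryo.

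Members and lists were chosen with earlier results of these data known. The text names all members, per list up to 4 genes in MEFs and 2 in mESCs with the largest log2 fold change among called genes whose groups do not overlap, all genes within 100 kb of a member with a median of 10 counts in a cell type, and the 5 genes most like Tbx2. Same-numbered MEF libraries deviated together from their group means (correlations 0.473, 0.161 and 0.240), although the pairing comes from the numbers in the labels alone. Other settings tried were upper-quartile or RLE scaling, no filter, 10 counts in every library, DESeq2 1.42.0, a replicate block, each library left out, 1 fit of 11 libraries, the study's thresholds and, chosen after seeing the data, removal of the GC trend (without and with the block in MEFs) and the exon union as gene length. Fits were tested on simulated counts with 200 changed genes. In the genotype contrasts 83 of them were called in mESCs and 24 in MEFs, with 8 and 0 false calls. A gene that was not called is therefore not shown to be unchanged. Figures were drawn with matplotlib 3.10.9, tables with Python 3.11.15. Genes deposited under a date-like symbol were named by their identifier.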

Additional observations from a re-analysis of the deposited data

Results flagged for a closer look

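Among the members and the list genes named, 4 had every Atxn7l3-/- library on one side of every WT library in MEFs and on the other side in mESCs. The same held for 11.9% of the 14297 genes tested in both cell types, so the count is no result about these genes, and the MEF value of Tbx2 took part in the choice of members. Tbx2 was at -2.93 on the log2 scale in MEFs and 1.64 in mESCs, Tbx4 at -5.73 and 1.11, Lmx1b at -6.21 and 1.63, and Gja1 at 1.46 and -1.07. Of these, only Gja1 passed the test in mESCs, a call that was lost in 1 fit of all 11 libraries (adjusted p = 0.0765). The difference between the cell types was not tested for any of them.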

How the results depend on the processing

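Of the 7 members described in MEFs, all kept the sign of their log2 fold change under every alternative in which they were tested; Tbx4 was not tested with 10 counts in every library. Tbx2 moved from -2.93 to -1.5 with the GC trend removed and to -1.65 with it removed and the replicate block, and without WT library 2 Tbx4, Tbx5 and Tbx15 moved to -3.05, -1.88 and -2.36. The count of members called in mESCs (1) was 2 by DESeq2 and 0 in 1 fit of 11 libraries, fits that called 19.2% and 2.31% of all genes. With an Atxn7l3-/- library left out it was 0 to 2. Between WT cell types it was 4 to 6 and between Atxn7l3-/- cell types 3 to 5 with a library left out, and 2 in the latter with 10 counts in every library. The list genes called in MEFs (17) were 27 without a filter and 10 with 10 counts in every library. Those fits called 6.44% and 6.43% of all genes, against 9.41%. They were 34 by DESeq2, 31 with the replicate block and 33 in 1 fit of 11 libraries, which called 24.7%, 14.0% and 18.5% of all genes. With a library left out they were 3 to 23 (3 without WT library 3, 7 without WT library 1, Atxn7l3-/- library 1 or 2, fits that called 1.2% to 2.85% of all genes). Those called in mESCs (7) were 19 without a filter, 21 by DESeq2, 12 with the replicate block and 4 in 1 fit of 11 libraries. Those fits called 9.63%, 19.2%, 8.06% and 2.31% of all genes, against 6.96%. Without Atxn7l3-/- library 1, 2 or 3 they were 0, 11 and 13, in fits that called 0.0171%, 12.8% and 8.63% of all genes. In the fits without a WT library, the lone WT library left is assumed to vary like the others. Reversed signs concerned values that were not called with all libraries: Tbx20 between WT cell types (-0.053 by upper-quartile normalization, and -0.86 to 0.71 with a library left out), Tbx5 between Atxn7l3-/- cell types (0.18 with the replicate block, and -0.83 to 0.57 with a library left out), Tbx2 there (-0.023 to 1.01), Tbx15 in mESCs (-0.72 to 0.65) and Tbx4 between WT cell types (-1.71 to 1.51). The cause was not tested. In mESCs same-numbered libraries did not deviate together (correlations 0.00777 and -0.172). Counts near 3 limit Tbx1 and, in Atxn7l3-/- MEFs, Tbx4. Low counts in a whole group also limit list genes that were called. In Atxn7l3-/- mESCs T held 3, 3 and 4 counts and Irx4 5, 4 and 3. In Atxn7l3-/- MEFs Six2 held 1, 0 and 2 and Lmx1b 5, 0 and 6, and in WT MEFs Gata5 held 2, 0 and 1.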
